A study of Mus musculus with 2 samples.

Results

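Mzb1 Vpreb3 B cells were chosen by 4 conditions on each barcode's own raw counts of unique molecular identifiers (UMIs, the tags that count RNA molecules). The B cell genes Cd79a, Cd79b and Ms4a1 made up at least 0.15% of its UMIs, Cd3d, Cd3e and Cd3g summed to at most 1, the interferon response genes Ifit1, Ifit3, Rsad2 and Oasl1 summed to at most 1, and Mzb1 and Vpreb3 summed to at least 2. The rule found 101 members among 11238 barcodes of the control library and 2015 among 13962 barcodes of the PBM library, 2116 of 25200 in all. The question was whether these cells carry a transitional, a marginal zone or a plasma cell programme. Barcodes that met the first 3 conditions and had 0 or 1 UMI of Mzb1 and Vpreb3 are called the other gated B cells (102 control, 1637 PBM) and serve as the nearest comparison.

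Both libraries came from MC38, a mouse colon carcinoma line, grown under the skin of C57BL/6 mice of wild type genotype, with no transgene or drug named for either group. In the PBM group the treatment (photobiomodulation, light given to tissue) was given daily from day 7, and tumours of both groups were taken on day 14. CD45-positive cells, the immune fraction, were sorted and pooled within a condition; age, sex and the number of mice in a pool are not in the labels. The sample labels give the cell type as tumour cells, but none of the epithelial or tumour markers listed here reached 20 UMIs summed over all members. Each group is 1 library, so no test between groups or cell groups was possible: the intervals below are 95% intervals, they cover counting error only, and treatment, pool of animals and library cannot be told apart.

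Newly made B cells leave the bone marrow as transitional cells, marked by Cd93 and high Cd24a, and mature into follicular cells, which carry IgD and CD23 (encoded by Ighd and Fcer2a), or into marginal zone cells, which carry more IgM and CD21 (Ighm and Cr2). Activated B cells can enter a germinal centre or become plasma cells, which secrete antibody under the regulators Prdm1, Irf4 and Xbp1 and add the joining chain (Jchain) to IgM and IgA. Mzb1 encodes a protein of the endoplasmic reticulum that helps assemble and secrete antibody and is high in marginal zone, B-1 and plasma cells; Vpreb3 encodes a B lineage protein of the same compartment that is high in immature stages.

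The libraries held 104673228 UMIs (control) and 86159897 UMIs (PBM), with medians of 5621.5 and 5143.5 per barcode. Their contents differed, and RNA of the main cells of a library was found in other barcodes. The macrophage genes Lyz2, C1qa, C1qb, C1qc and Csf1r summed to 1185 counts per 1000000 UMIs (CPM) in control members and 21.8 CPM in PBM members. In barcodes gated as T cells (at least 3 UMIs of the CD3 genes, at most 1 of the B cell genes) the sums were 3932 CPM and 31.6 CPM. These T-gated barcodes, 2937 control and 2521 PBM, serve below as the background for B cell genes. They are no such background for genes that T cells make themselves, and which genes these are was not tested. Control T-gated barcodes held 14.1 CPM of Igkc and 304 CPM of the state gene Plac8. The kappa light chain gene Igkc was at 11300.3 CPM in control members and 10078 CPM in PBM members. After every barcode was reduced to 1000 UMIs, it had a UMI in 96.0% and 98.1% of members, against 1.91% and 49.1% of T-gated barcodes. The median depths before that step were 3131 and 4470 UMIs in members and 5602 and 4667 UMIs in T-gated barcodes. At least 2 UMIs of Mzb1 and Vpreb3 were found in 1 of 2937 control T-gated barcodes (0.0340%) and in 40 of 2521 PBM ones (1.59%). No CD3 UMI was seen in 86 control and 1022 PBM members. The limit on CD3 genes left out 13 of 220 control barcodes with enough B cell genes (5.91%) and 2455 of 6477 PBM ones (37.9%).

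The rule's 2 genes drew a line through 1 unbroken distribution. In the control library 61 gated B cells had no UMI of Mzb1 or Vpreb3, 41 had 1, 29 had 2, 25 had 3 and 18 had 4. In the PBM library the same numbers were 807, 830, 587, 472 and 345. The counts fell off with no gap or second peak at the limit of 2, and the highest sums in 1 barcode were 36 and 38. Just outside the limit, at 1 UMI, the median depth was 2556 UMIs (control) and 3964 UMIs (PBM). Just inside it, at 2 UMIs, it was 2656 and 4157.

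**Figure D1:**
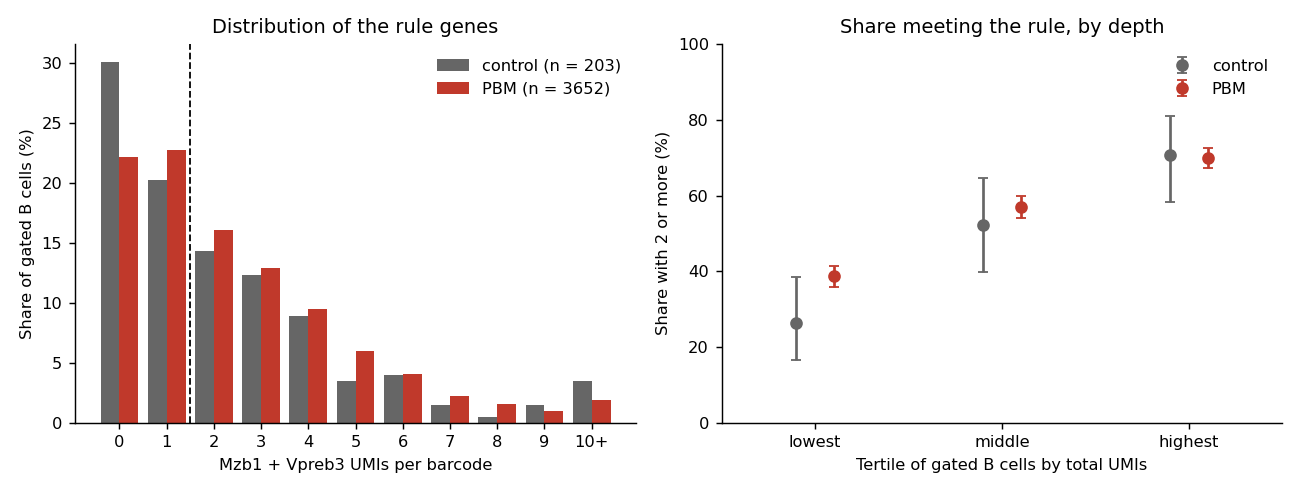
Left, share of gated B cells (%) by the summed UMIs of Mzb1 and Vpreb3 per barcode, in the control library (grey, 203 barcodes) and the PBM library (red, 3652 barcodes); the dashed line marks the limit of 2. Right, share of gated B cells that met the limit (%, points, with exact 95% intervals as bars) in the lowest, middle and highest tertile of total UMIs per barcode. The left panel shows no gap at the limit, and in the right panel the share is highest in the deepest tertile of both libraries.

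Members were 49.8% of gated B cells in the control library (101 of 203, exact Clopper-Pearson interval 42.7 to 56.8) and 55.2% in the PBM library (2015 of 3652, 53.5 to 56.8). The share followed depth: from the shallowest to the deepest tertile of barcodes it was 26.5%, 52.2% and 70.6% in the control library and 38.6%, 57.0% and 69.9% in the PBM library. The order of the libraries changed with depth. When Mzb1 and Vpreb3 were counted among 1000 UMIs of each gated B cell, 16.3% of control (33 of 203, 11.5 to 22.1) and 12.8% of PBM gated B cells (467 of 3652, 11.7 to 13.9) met the limit. Among gated B cells of 3000 to 5000 UMIs the shares were 64.9% (37 of 57, 51.1 to 77.1) and 57.0% (1075 of 1887, 54.7 to 59.2). Members made up 0.899% of all control barcodes (0.733 to 1.09). Of all PBM barcodes they made up 14.4% (13.9 to 15.0).

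Mzb1 and Vpreb3 did not mark the same barcodes more often than their separate shares give. At 1000 UMIs per gated B cell, Mzb1 was seen in 24.1% of control and 25.1% of PBM barcodes and Vpreb3 in 26.6% and 20.5%. Both genes were seen in 11 of 203 control barcodes (5.42%, against 6.42% as the product of the 2 shares) and in 189 of 3652 PBM barcodes (5.18%, against 5.14%). At full depth, 24 control members had Mzb1 and no Vpreb3, 22 had Vpreb3 and no Mzb1, and 55 had both. In the PBM library these numbers were 592, 299 and 1124.

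The label's other markers hardly set the members apart in the PBM library. Since the rule chose the members from these same cells, what follows within a library is a description. Pou2af1, a coactivator of antibody genes, was at 152 CPM in PBM members and 141 CPM in the other gated B cells, with overlapping intervals (145 to 160.3 and 131 to 150.5), and at 191 CPM and 174 CPM in the control library. Cd24a, a surface protein that is high in transitional cells, was at 185 CPM and 169.9 CPM in the PBM library, also with overlapping intervals. Its control levels were 232 CPM in members and 108 CPM in the others (log2 ratio 1.10, 0.47 to 1.77). Igkc was at 10078 CPM and 9689 CPM in the PBM library and at 11300.3 CPM and 10868 CPM in the control library. Of the label's markers outside the rule, Igkc in the PBM library and Cd24a in the control library had intervals that did not overlap.

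The members carried the genes of mature B cells. Ighm, the heavy chain of IgM, had a UMI in 98.0% of control and 99.7% of PBM members, and Ighm and Ighd were seen together in 73.3% and 94.6%. Fcer2a was at 253 CPM in control members (205 to 309) and 368 CPM in PBM members (356 to 380.3), against 0.49 CPM and 23.7 CPM in T-gated barcodes. At 1000 UMIs per barcode it was seen in 21.8% of control and 29.7% of PBM members, against 0.0681% and 2.34% of T-gated barcodes. Cr2, the gene of CD21, was at 62.6 CPM and 151 CPM, against 0 CPM and 9.56 CPM in T-gated barcodes. Fcmr, the receptor for IgM, was at 765 CPM and 928 CPM. Ighm, Fcer2a, Cr2 and Fcmr were each above the T-gate background in both libraries, with separate intervals.

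**Figure D2:**
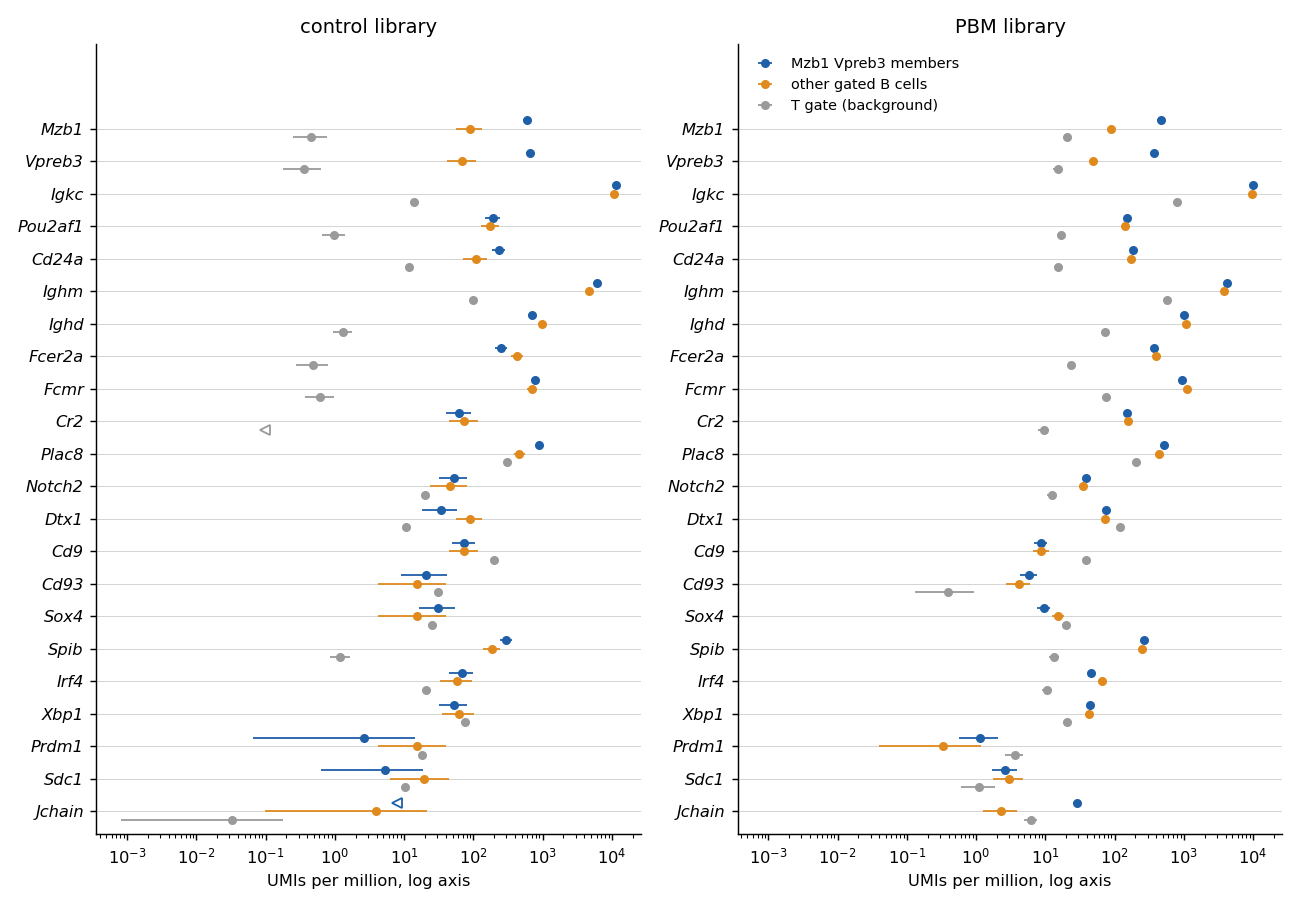
Level in CPM (log axis) of the rule genes, the label's other markers and genes of B cell states, in members (blue), the other gated B cells (orange) and T-gated barcodes (grey) of the control library (left) and the PBM library (right); bars are exact Poisson 95% intervals, and an open triangle stands at the value of 3 UMIs where none was counted. Members and the other gated B cells lie close together for most genes other than Mzb1 and Vpreb3; Jchain in PBM members, at 28.4 CPM, is mostly 1 barcode.

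Most follicular genes did not separate members from the other gated B cells. Over all genes with at least 20 UMIs, 1.48% were higher and 3.97% lower in PBM members with separate intervals; in the control library 1.69% were higher and 1.79% lower. Of 12 measured follicular genes, 0 were higher and 3 lower in the PBM library (median log2 ratio -0.06, against -0.07 over all genes). Of the same 12 genes 0 were higher and 2 lower in control members (-0.19, against -0.01). Ighd was at 1005 CPM in PBM members and 1067 CPM in the others (log2 ratio -0.09, -0.13 to -0.04), and at 697 CPM and 971 CPM in the control library (-0.48, -0.73 to -0.22). Fcer2a was at 368 CPM and 398 CPM (-0.11) and at 253 CPM and 426 CPM (-0.75). With scaling by trimmed mean of M values (TMM) the PBM ratio of Ighd was 0.00 and that of Fcer2a -0.02, and the list's PBM median was 0.03. Among barcodes of 3000 to 5000 UMIs that median was 0.02. The control differences rest on 267 and 251 UMIs of Ighd and 97 and 110 UMIs of Fcer2a.

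Transitional genes did not separate the members in the PBM library. Of 10 measured genes of that list outside the rule, 1 was higher, Spib (a transcription factor of B cells, 269.6 CPM against 245 CPM), and 1 lower, Sox4 (a transcription factor of precursors, 9.50 CPM against 15.3 CPM). The list's median log2 ratio was 0.13. Cd93, the defining surface marker, was at 5.74 CPM in PBM members (55 UMIs in 46 of 2015 barcodes) and 4.12 CPM in the others, with overlapping intervals. It was at 20.9 CPM (8 UMIs) in control members and 30.6 CPM in control T-gated barcodes. In control cells 4 list genes were measured, all above 0 with a median of 0.89, and 1 of them, Cd24a, had separate intervals. At least 2 UMIs of 5 transitional genes were found in 3.08% of PBM members (2.37 to 3.93), 2.44% of the other gated B cells and 3.49% of T-gated barcodes. The control shares were 11.9% (6.29 to 19.8), 2.94% and 11.3%. In each library the interval of the members' share held the share of T-gated barcodes. Whether T cells make these genes themselves was not tested, so this does not place the members at background. The control members that met this limit had a median of 3211.5 UMIs and the control T-gated barcodes 28619 UMIs, so these shares are not at matched depth. These genes were Cd93, Sox4, Myb, Cecr2 and Tifa. Cd24a rose over gated B cells with 0, 1 or 2, and 3 or more UMIs of Vpreb3. It was at 110, 220 and 332 CPM in the control library and 164, 190 and 204 CPM in the PBM library. The intervals of the first and last step did not overlap in either library. Fcer2a was at 314, 450 and 94.9 CPM (control) and 379, 380 and 382 CPM (PBM). The last control step held 25 barcodes. Depth was not matched over these steps.

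Marginal zone genes gave a like picture, with Plac8 as the exception. Of 14 measured genes of the list, 1 was higher and 1 lower in PBM members (median 0.08), and of 8 in the control library 1 was higher (-0.10). The gene that was higher in both was Plac8, a small cysteine-rich protein that is high in marginal zone and B-1 cells. It was at 519.8 CPM in PBM members and 436 CPM in the others (log2 ratio 0.25, 0.19 to 0.32), and at 885 CPM and 460.4 CPM in the control library (0.94, 0.64 to 1.26). T-gated barcodes held 205 CPM and 304 CPM of it. Among barcodes of 3000 to 5000 UMIs its ratio was 0.04 in the PBM library and 0.41 in the control library. Cr2 was at 151 CPM and 157.5 CPM in PBM members and others, Notch2, the receptor that directs marginal zone fate, at 38.4 CPM and 35.3 CPM, and Dtx1, a Notch target, at 75.9 CPM and 72.6 CPM, all with overlapping intervals. At least 2 UMIs of 7 marginal zone genes (Cd1d1, Cd9, S1pr3, Myof, Fcrl5, Asb2 and Cd36) were found in 4.96% of PBM members (4.06 to 6.00), 3.79% of the others and 4.60% of T-gated barcodes. The control shares were 12.9%, 2.94% and 26.6%, where T-gated barcodes with them had a median of 15234 UMIs. Whether T cells make these genes themselves was not tested either, so the T-gated shares are no measure of background.

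Ighm differed in the same direction in both libraries. It was at 4247 CPM in PBM members (4206 to 4288) and 3777 CPM in the other gated B cells (3728 to 3826), and at 6031 CPM and 4669.8 CPM in the control library. The log2 ratios were 0.17 (0.15 to 0.19) and 0.37 (0.27 to 0.47), and among barcodes of 3000 to 5000 UMIs 0.16 and 0.32. Without 1 plasma-like barcode, described in the next paragraph, PBM members were at 4116 CPM and the PBM log2 ratio was 0.12. In the PBM library its level was higher at higher counts of the rule's own genes, which is a description and no separate support. In PBM gated B cells with 0, 1, 2, 3 to 5 and 6 or more UMIs of Mzb1 and Vpreb3, Ighm was at 3772, 3781, 4001, 4044 and 4945 CPM. The last value is 4394 CPM without the plasma-like barcode. These steps differed in depth, with a median of 3597 UMIs at 0 rule UMIs and 4866 UMIs at 6. Over control gated B cells with 0, 1 or 2, and 3 or more UMIs of Vpreb3, Ighm was at 5209, 5987 and 5334 CPM. Over PBM ones it was at 3995, 4075 and 4260 CPM. Of 12 immunoglobulin constant and joining chain genes measured, 7 were higher and 1 lower in PBM members, and of 8 in the control library 4 were higher and 1 lower. The ratio of Ighm to Ighd UMIs was 4.22 in PBM members and 3.54 in the others, and 8.66 and 4.81 in the control library. The plasma-like barcode is included in this PBM ratio and in the PBM numbers of immunoglobulin genes.

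Jchain and Prdm1 were seen in few PBM members, 42 and 6 of 2015, while the regulators Xbp1 and Irf4, which are not limited to plasma cells, had a UMI in 329 (16.3%) and 346 (17.2%). Of 2521 T-gated barcodes 227 and 102 had a UMI of Xbp1 and Irf4, and of the other gated B cells 13.1% and 16.6%. Jchain was seen in 42 of 2015 PBM members with 272 UMIs, and 191 of these were in 1 barcode; without it the level was 8.47 CPM in place of 28.4 CPM, beside 2.31 CPM in the other gated B cells and 6.14 CPM in T-gated barcodes. That barcode had 9950 UMIs, of which 33.4% were immunoglobulin RNA: 1299 of Ighm, 1727 of the lambda light chain gene Iglc1, 12 of Igkc and 1 of Ighd. It also had 38 UMIs of Mzb1, 13 of Xbp1, 5 of Prdm1, 14 of the chaperone gene Hspa5 and 3 of the proliferation gene Mki67, and none of Vpreb3, Fcer2a or Sdc1. Over the other 2014 PBM members Prdm1 had 6 UMIs and Xbp1 was at 43.0 CPM. No Jchain UMI was seen in the 101 control members, which allows a share of members with a UMI of up to 2.97% (3 of 101; the exact Clopper-Pearson limit is 3.59%).

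The rest of the plasma cell list did not separate the members. Of 11 measured regulators and surface genes, 2 were higher and 1 lower in PBM members (median -0.03), and of 6 in the control library none was. The higher ones were Jchain and Eaf2, the lower one Irf4 (45.8 CPM against 65.2 CPM, log2 ratio -0.51). Xbp1 was at 44.3 CPM and 42.2 CPM in the PBM library and 52.2 CPM and 61.9 CPM in the control library. Sdc1, the gene of the plasma cell marker CD138, had 25 UMIs in PBM members and at most 2 in 1 barcode, and Tnfrsf17, the gene of the plasma cell survival receptor, was at 0.10 CPM. Of 19 genes of the secretory pathway, 0 were higher and 1, Hspa5, was lower in PBM members (199 CPM against 233 CPM). At least 3 UMIs of Jchain, Prdm1, Sdc1, Tnfrsf17 and Derl3 were found in 8 of 2015 PBM members (0.397%, 0.172 to 0.781), 1 of 1637 others (0.0611%) and 3 of 2521 T-gated barcodes (0.119%). The median depths of the PBM barcodes that met this limit were 7177.5, 2258 and 5046 UMIs. In the control library 0 of 101 members, 1 of 102 others (0.980%) and 81 of 2937 T-gated barcodes (2.76%) met it. Those 81 had a median of 31346 UMIs, so these shares are not at matched depth.

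Of 15 cell cycle genes 4 were higher in PBM members than in the other gated B cells and 0 lower (median 0.24, and -0.06 among barcodes of 3000 to 5000 UMIs); Mki67 was at 7.00 CPM against 3.30 CPM, with 11 of its 67 UMIs in 1 barcode. At least 5 UMIs of switched heavy chain genes were found in 11 PBM members (0.546%) and 1 of the others (0.0611%), and in 2 control members and 1 of the others. A single control member held all 57 UMIs of Ighg2b there, with 24 UMIs of Mzb1.

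Beyond these lists, many genes differed a little between members and the other gated B cells, and the number depended on scaling and depth range. Among 2271 tested genes (at least 100 UMIs in the compared cells and 50 CPM on either side) 113 were higher (4.98%) and 191 lower (8.41%) in PBM members with separate intervals, but only 2 in each direction by a fold of 2 (0.0881% each). Of 689 control genes 38 were higher (5.52%) and 27 lower (3.92%), and 8 (1.16%) and 4 (0.581%) by a fold of 2. With TMM scaling the numbers were 357 and 61 in the PBM library and 67 and 15 in the control library, so the balance of directions changed with the scaling. Within 3000 to 5000 UMIs they were 54 and 55 of 2278 tested PBM genes, and 16 and 6 of 225 control genes. Fewer cells were compared there, and the cause of the lower numbers was not tested. Of 670 genes tested in both libraries 382 had the same sign; 15 were higher in both, 11 lower in both and 3 went opposite ways, all with separate intervals. Among those higher were Chchd10, a mitochondrial protein (321 CPM against 174 CPM in control, 208 CPM against 157.9 CPM in PBM), Crip1, a LIM domain protein (1336 against 754, and 629 against 532), and Ifi30, a thiol reductase of antigen processing (673 against 298, and 439.9 against 391). In the depth range of 3000 to 5000 UMIs these 3 stayed higher in both libraries, with PBM log2 ratios of 0.34, 0.21 and 0.14. Not all of the 15 did. In that range Ucp2 was at -0.11 in the control library, and 2410006H16Rik at -0.0073 and Zfas1 at -0.10 in the PBM library. Iglc1, also 1 of the 15, was at 1.41 (control) and 0.27 (PBM) there. Its PBM log2 ratio was 0.48 over all depths, and 0.13 without the plasma-like barcode.

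Immediate early genes, which respond within minutes to receptor signals and to tissue handling, were in part lower in members. Of 16 genes 8 were lower and 0 higher in the PBM library (median log2 ratio -0.22), and 6 lower and 0 higher in the control library (-0.30). Junb, an AP-1 subunit, was at 753 CPM in PBM members and 874 CPM in the others, and at 1232 CPM and 2151 CPM in the control library. Egr1, an early transcription factor, was at 23.9 CPM and 41.7 CPM, and at 36.5 CPM and 104.5 CPM. Of 15 B cell activation genes 6 were lower and 0 higher in the PBM library (-0.42), among them Nfkbid, an NF-kB regulator (27.4 CPM against 58.1 CPM), and Myc (34.3 CPM against 51.8 CPM). Within 3000 to 5000 UMIs the PBM medians were -0.06 for immediate early and -0.22 for activation genes, and Junb was at -0.03, so these PBM differences were smaller within that range. The control median for immediate early genes was -0.55 in that range. Over all depths macrophage RNA and Malat1, a nuclear RNA, were lower in members as well. The macrophage sum was 1185 CPM in control members and 1996 CPM in the others, and 21.8 CPM and 72.6 CPM in the PBM library. Malat1 was at 316 CPM and 735 CPM, and at 270.0 CPM and 415 CPM. Within 3000 to 5000 UMIs the log2 ratio of Malat1 was 2.73 in the control library, the opposite direction, and -0.13 in the PBM library. That of the macrophage gene Lyz2 was -0.14 (control) and -1.74 (PBM) there. The part of macrophage RNA and Malat1 in the lower immediate early genes was not tested.

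Members with only Mzb1 and members with only Vpreb3 differed from each other. These subsets share the gate and were split by the rule's own genes. Their median depths were 4507.5 and 3978 UMIs in the PBM library and 3746.5 and 2650 UMIs in the control library. They were not compared at matched depth. Among 2331 genes tested in the PBM library, 105 were higher (4.5%) and 168 lower (7.21%) in the Mzb1-only members with separate intervals; over genes with at least 20 UMIs the shares were 1.61% and 3.03%. Of 15 B cell identity genes 0 were higher and 6 lower, of 10 MHC class II genes 0 and 5, and of 12 marginal zone genes 2 and 1 (medians -0.17, -0.13 and 0.24, against -0.09 over all genes). Plac8 was at 697 CPM (667 to 728) in the 592 Mzb1-only and 342 CPM (309 to 377) in the 299 Vpreb3-only PBM members, and at 1189 CPM and 379 CPM in the control library (24 and 22 barcodes). Fcrl5, an inhibitory receptor of marginal zone and B-1 cells, was at 33.2 CPM and 5.13 CPM in PBM members, and at 60.7 CPM and 0 CPM in control members. Apoe, the apolipoprotein gene, was at 249 CPM and 126 CPM, and at 1041 CPM and 407 CPM; control T-gated barcodes held 1290.5 CPM of it and PBM ones 19.5 CPM. The control value of Fcrl5 rests on 7 UMIs against 0, with overlapping intervals. Plac8 and Apoe were higher in Mzb1-only members of both libraries with separate intervals, but both control levels of Apoe were below that of T-gated barcodes. The 4 measured macrophage markers summed to 2395 CPM in control Mzb1-only and 1515 CPM in control Vpreb3-only members, 2 of them higher and 2 lower. Cr2, another marginal zone gene, was at 148 CPM and 159.8 CPM in the PBM subsets with overlapping intervals.

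**Figure D3:**
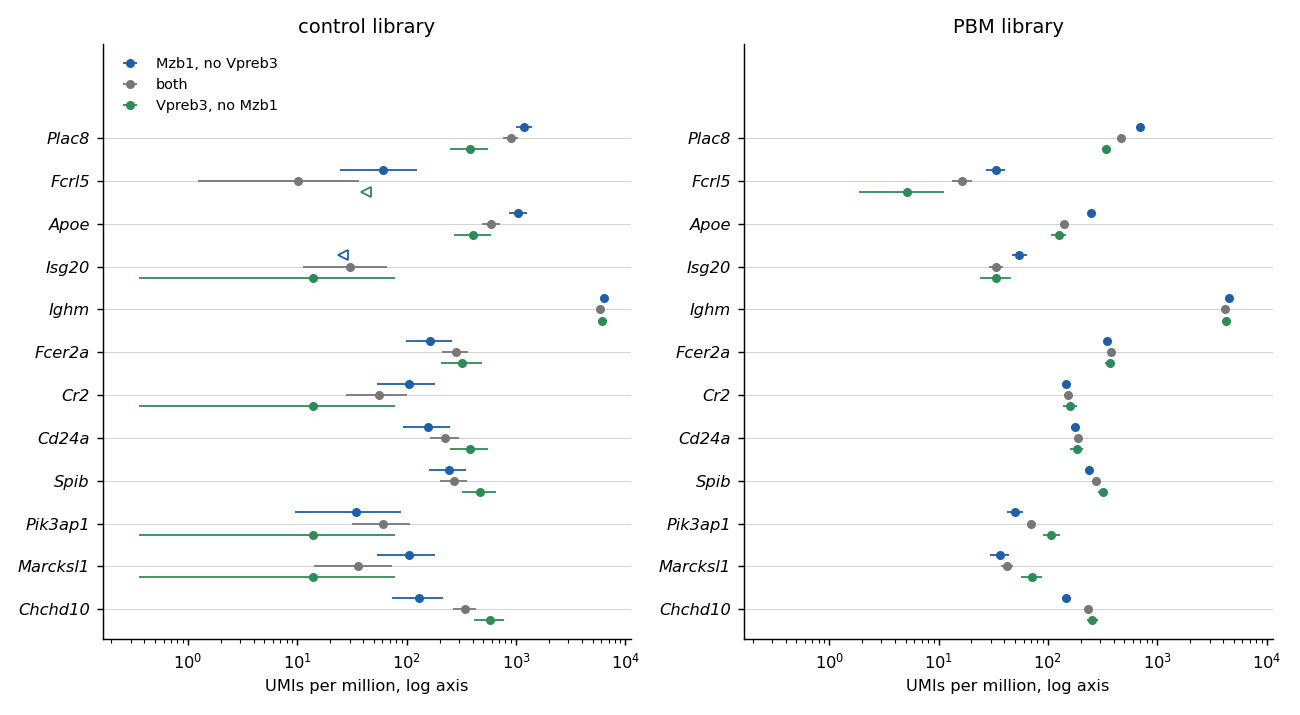
Level in CPM (log axis) of 12 genes in members with Mzb1 and no Vpreb3 (blue), both (grey) and Vpreb3 and no Mzb1 (green), in the control library (left; 24, 55 and 22 barcodes) and the PBM library (right; 592, 1124 and 299); bars are exact Poisson 95% intervals, and an open triangle stands at the value of 3 UMIs where none was counted. Plac8 and Apoe are highest in the Mzb1-only members and Chchd10 in the Vpreb3-only members of both libraries. For Chchd10 the intervals of Vpreb3-only members and members with both genes overlap in both libraries. For Plac8 the intervals of Mzb1-only members and members with both genes overlap in the control library.

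Jchain and Iglc1 were also higher in Mzb1-only PBM members, at 68.4 CPM against 2.56 CPM and at 1344 CPM against 576 CPM, but the plasma-like barcode is among them. Without it Jchain was at 3.09 CPM and Iglc1 at 756 CPM (725 to 789). Slamf7, a surface receptor of plasma cells, was at 34.5 CPM against 15.4 CPM. The Vpreb3-only members had more of several B cell genes: Ebf1, a transcription factor of early B cells, was at 323 CPM in Mzb1-only and 502 CPM in Vpreb3-only PBM members, and Spib at 237 CPM and 318 CPM. Control Ebf1 was at 356 CPM and 1080.4 CPM, and Spib at 243 CPM and 463 CPM. Cd24a was at 178 CPM and 185 CPM in the PBM subsets, with overlapping intervals, and at 156 CPM and 379 CPM in the control subsets. Pik3ap1, a signalling adaptor, was at 49.9 CPM and 108 CPM in the PBM subsets, while the control subsets held 4 and 1 UMIs of it. Gzma, a granzyme gene of NK and T cells, was also higher in the Vpreb3-only members. It was at 37.6 CPM and 80.3 CPM in the PBM subsets, and the control subsets held 6 and 67 UMIs of it. The part of other cells' RNA in these differences was not tested.

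Chchd10 followed Vpreb3. It was at 147 CPM in Mzb1-only and 254 CPM in Vpreb3-only PBM members, and at 130.2 CPM and 575 CPM in control members. Over PBM gated B cells with 0, 1 or 2, and 3 or more UMIs of Vpreb3 it was at 148, 204 and 281 CPM, and over control ones at 147, 287 and 569 CPM. The genes are neighbours on the same strand in the mouse build mm10 (GRCm38): Chchd10 lies at chr10:75933130-75937750 and Vpreb3 at chr10:75943024-75949657, with 5273 bases between them. Whether reads of one gene were counted for the other was not tested.

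Levels differed between the libraries for many genes, in members and in the other gated B cells. Among 2538 tested genes 41 were higher (1.62%) and 155 lower (6.11%) in PBM members by a fold of 2 with separate intervals; with TMM scaling the numbers were 90 and 94, and the median log2 ratio over all genes was -0.07 before and 0.17 after it. In the other gated B cells 53 of 2772 were higher (1.91%) and 179 lower (6.46%). Over genes with at least 20 UMIs, 2.74% were higher and 7.56% lower with separate intervals in members, and 2.94% and 5.84% in the other gated B cells. Genes of other cells were among the 10 with the largest ratios in each direction. Tcf7, Trac, Trbc1 and Trbc2, genes of T cells, were higher in PBM members; Tcf7 was at 53.5 CPM against 2.61 CPM (1 UMI; log2 ratio 4.36, 1.87 to 9.66), beside 501 CPM and 61.1 CPM in T-gated barcodes. Arg1, Ccl6, Lyz2, Spp1 and Lgals3, genes of macrophages, were lower; Arg1 was at 4.80 CPM against 958 CPM, beside 41.6 CPM and 4867 CPM in the whole libraries. The other 6 higher ones were Ublcp1, Tardbp, Irf9, Irf7, Elmsan1 and Id3, and the other 5 lower ones AA467197, Ifitm2, Gm42674, S100a4 and Ighg2b. Those 6 higher ones rest on 3, 7, 8, 7, 7 and 21 control UMIs. In the other gated B cells Tardbp was at 65.0 CPM (PBM) and 65.8 CPM (control), and the log2 ratio of Elmsan1 was 0.18. The log2 ratios of Ublcp1, Irf9, Irf7 and Id3 there were 1.10, 1.39, 2.00 and 1.74. All 57 control UMIs of Ighg2b were in 1 barcode, and without it control members held 0 against 55 in PBM members. All 7 measured macrophage markers were lower (median log2 ratio -5.69), and of 8 T cell markers 5 were higher and 1 lower (1.68) in PBM members, and the part of such RNA in the other differences was not tested.

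**Figure D4:**
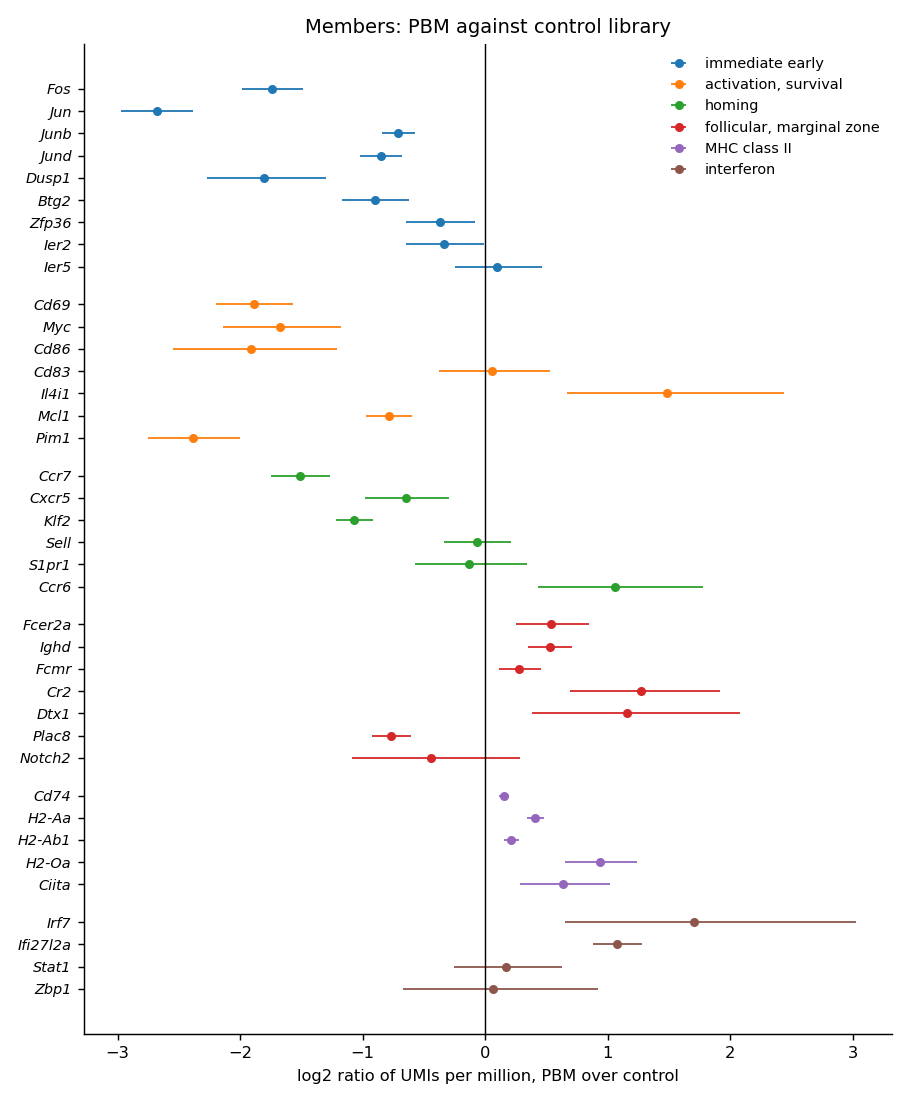
log2 ratio of CPM, PBM over control, in members, for genes of 6 groups (colours); bars are exact 95% intervals for counting error, and the vertical line marks no difference. Most immediate early genes lie left of the line, from -2.68 for Jun to 0.10 for Ier5, and the 5 MHC class II genes lie right of it.

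Most immediate early genes and some activation genes were lower in PBM members. Of 16 immediate early genes 11 were lower and 0 higher (median -0.88), and in the other gated B cells 13 and 0 (-1.13). Fos, an AP-1 subunit, was at 120.2 CPM in PBM members (113 to 127) and 402 CPM in control members (341 to 471), and Jun at 49.2 CPM and 316 CPM. T-gated barcodes were also lower for these, with Fos at 79.9 CPM and 152 CPM and Jun at 27.0 CPM and 198 CPM. Of 15 activation genes 6 were lower and 1 higher (-0.99). Cd69, an early activation receptor that holds lymphocytes in tissue, was at 69.1 CPM in PBM members and 256 CPM in control members. It was the other way round in T-gated barcodes, at 70.2 CPM and 36.7 CPM. Myc was at 34.3 CPM and 109.6 CPM. The exception was Il4i1, an amino acid oxidase, at 87.5 CPM and 31.3 CPM. Among survival genes 5 of 12 were lower and 1 higher, with Mcl1, which protects from cell death, at 386 CPM and 665 CPM and Pim1, a kinase, at 36.5 CPM and 191 CPM.

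Homing and state genes differed in both directions. Ccr7, the receptor that guides cells in lymphoid tissue, was at 145 CPM in PBM members and 415 CPM in control members, and Klf2, a regulator of trafficking, at 489 CPM and 1026 CPM. In T-gated barcodes Ccr7 was higher in the PBM library, at 284 CPM and 30.6 CPM. Ccr6, a chemokine receptor of B cells, was at 109 CPM and 52.2 CPM. Of 12 follicular genes 6 were higher and 5 lower (median 0.11). Fcer2a (log2 ratio 0.54), Ighd (0.53) and Tnfrsf13c, the receptor for the survival factor BAFF (329 CPM and 180.1 CPM), were among the higher ones. Of 9 transitional genes 4 were lower, namely Cd93, Sox4, Tifa and Cecr2 (-0.50 for the list). Of 14 marginal zone genes 2 were higher, Cr2 and Dtx1, and 3 lower, Plac8, Cd9 and Cd36; the list's median was -0.45 at full depth and 0.19 at 1000 UMIs per barcode. Cd93 and Cd9 were also lower in PBM T-gated barcodes, at 0.40 CPM against 30.6 CPM and at 38.7 CPM against 200.1 CPM.

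MHC class II genes and a few interferon genes were higher in PBM members. Of 10 MHC class II genes, which present antigen to T cells, 8 were higher and 0 lower (median 0.34), and in the other gated B cells 7 and 0 (0.22). H2-Aa was at 6465 CPM in PBM members and 4865 CPM in control members, and H2-Oa at 505 CPM and 264 CPM. T-gated barcodes held 545 CPM and 589 CPM of H2-Aa. The rule capped 4 interferon response genes in both libraries. The cap left out 4 control and 370 PBM barcodes that met the B cell and CD3 conditions, beside 203 and 3652 that were kept. The comparison was therefore made on cells already limited for this response, more so in the PBM library. Of 14 other measured interferon genes 3 were higher and 0 lower (0.88), and in the other gated B cells 4 and 0 (1.24). Ifi27l2a was at 1157 CPM and 548 CPM, and at 1364 CPM and 386 CPM in T-gated barcodes, and Irf7 at 59.5 CPM and 18.3 CPM, with 71.0 CPM and 25.3 CPM there. Among barcodes of 3000 to 5000 UMIs the interferon median was 0.32 and the MHC class II median 0.40.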

How the data were processed

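The deposited files are matrices of raw UMI counts per gene and barcode, 1 per library, with no normalization. Per the submitters' processing notes the tool was Cell Ranger 7.2.0 with the mm10 build; the matrix headers name PISA 0.12 instead, and the barcodes are numbers. Every deposited barcode had over 1000 UMIs and none was removed. Barcode names shared between the libraries numbered 1991, 1 of them a member in both. Doublets were kept; Scrublet (scanpy 1.11.5) called 109 control barcodes (0.970%) and 880 PBM barcodes (6.30%), among them 3 and 11 members.

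Levels are UMIs summed over a cell group per 1000000 of its UMIs (CPM), with exact Poisson 95% intervals; log2 ratios have exact conditional binomial intervals, and shares exact Clopper-Pearson intervals. A gene was tested with at least 100 UMIs and 50 CPM on either side; list medians used genes with at least 20 UMIs, without rule genes, and a sum of 0 was set to 3 counts. Apart means that Poisson intervals do not overlap; no p-value was computed. Genes named between libraries are the 10 with the largest log2 ratios per direction, and between members and others those apart in both libraries, up to 12 per direction, with list members also named. Ribosomal protein, mitochondrial and variable segment genes were not named.

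Members and gene lists were chosen with earlier results of these data known. The T gate, the UMI limits for states, the Mzb1-only comparison and the steps of rule UMIs were chosen after seeing the data, as were 4 alternatives added to 10 planned ones (TMM from edgeR 4.0.16). Calculations were tested on simulated counts. Gene positions are from RefSeq for GRCm38. Protein sequences were not used here. Germinal centre genes are not reported here.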

Additional observations from a re-analysis of the deposited data

Results flagged for a closer look

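Among genes tested in both libraries, 3 differed between members and the other gated B cells in opposite directions, each with intervals that excluded no difference; the change of direction between the libraries was not tested. Jarid2, a subunit of Polycomb complexes, was at 778 CPM in control members and 1145 CPM in the other gated B cells (log2 ratio -0.56, -0.80 to -0.32) and at 724 CPM and 661 CPM in the PBM library (0.13, 0.08 to 0.19). Without barcodes called doublets the control ratio of Jarid2 was 0.048. Rps27 had log2 ratios of -0.12 (control) and 0.041 (PBM), and Rps24 -0.12 and 0.028; both encode ribosomal proteins.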

How the results depend on the processing

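No paired analysis was possible because each group is 1 library, and for the same reason no replicate could be left out. The share of gated B cells that met the rule was 70.0% (control) and 77.9% (PBM) with at least 1 UMI of Mzb1 and Vpreb3, 35.5% and 39.1% with at least 3, 17.1% and 11.7% with the whole rule on 1000 UMIs, 16.3% and 12.8% with only Mzb1 and Vpreb3 counted among 1000 UMIs, 64.9% and 57.0% within 3000 to 5000 UMIs, and 56.8% (PBM) with up to 3 CD3 UMIs. Thinned to 1000 UMIs, PBM against control had 24 higher and 69 lower genes (41 and 155 at full depth), and with TMM 90 and 94. Members against the other gated B cells had, in the PBM library (113 higher, 191 lower), 357 and 61 with TMM, 54 and 55 within 3000 to 5000 UMIs and 59 and 90 thinned. In the control library (38 and 27) these were 67 and 15, 16 and 6, and 10 and 4. The cause was not tested; in the PBM library 2426 genes were tested after thinning and 2278 within 3000 to 5000 UMIs, against 2271, and in the control library 217 and 225 against 689.

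Of 649 list medians under alternatives 66 had the opposite sign. Members against others in the PBM library, follicular genes gave 0.030 with TMM and 0.024 within 3000 to 5000 UMIs (-0.06), and cell cycle genes -0.06 within that range (0.24). Control secretory pathway genes gave -0.41 there (0.12). PBM against control, marginal zone genes gave 0.19 thinned (-0.45), and cell cycle genes 0.16 within 3000 to 5000 UMIs and 0.046 without the 2 barcodes with most Jchain and Ighg2b (-0.33). Control survival genes, members against others, gave -0.030 with at least 3 UMIs and -0.33 thinned (0.41). Within 3000 to 5000 UMIs the sign changed for Ucp2 (-0.11), Malat1 (2.73) and Ftl1 (0.12) in the control library and for 2410006H16Rik (-0.0073), Zfas1 (-0.10), Ier2 (0.017) and Jund (0.0012) in the PBM library. It also changed for control Lyz2 without barcodes with markers of other cells (0.15), control Jarid2 without doublets (0.048) and PBM Ighd with TMM (0.0045).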
